A study of Mus musculus with 4 samples.

Results

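The 8 genes described here, *Ngp*, *Camp*, *Ltf*, *Lcn2*, *Chil3*, *Cd177*, *Itgb2l* and *Ly6g*, encode proteins of the secondary granules of neutrophils and surface or secreted proteins that mark neutrophil maturation. They were chosen by gene symbol, and all 8 were found among the 25655 genes of the files. Secondary granules, also called specific granules, are filled while neutrophil precursors leave the cell cycle in the bone marrow, and their contents are released into the tissue when the mature cell is activated. Transcripts of granule proteins are made in successive waves, primary granule proteases first, secondary granule proteins next and gelatinase granule proteins last, and the secondary wave depends on the transcription factor C/EBPε. Neutrophils are among the first cells to enter the injured heart.

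Neutrophils were sorted from hearts on day 3 after myocardial infarction and reperfusion (MI/R), in which the left anterior descending artery was ligated for 60 minutes and then released. RNA-Seq was run on 4 libraries, from SiglecF lo and SiglecF hi neutrophils of wild-type (WT) and *Cd300a-/-* mice, which lack the inhibitory receptor CD300a. The labels name the subsets SiglecF− and SiglecF+. Each library held sorted CD45.2+CD11b+Ly6G+ cells pooled from 8 hearts, and each group had 1 library. The WT mice were C57BL/6J and the *Cd300a-/-* mice were on the C57BL/6 background, and all were male and 8 to 12 weeks old by the study's methods. MI/R was common to all 4 groups, and uninjured hearts are not analysed here. As single mice cannot be separated in a pool and no group had a second library, no difference has a replicate check and no test between conditions was made.

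The total count was 9631901 for the WT SiglecF lo library and 10988619 for its *Cd300a-/-* counterpart, and 19278243 and 17632989 for the WT and *Cd300a-/-* SiglecF hi libraries. Levels are given as transcripts of each gene per 1000000 transcripts (TPM), which takes gene length into account. Differences are log2((TPM + 1) ratio) values, a scale on which the change of a low gene appears smaller than it is, and a gene was counted as higher or lower past 0.5. The genes tested were the 6523 with a mean TPM of the 4 libraries above 10, and all 8 members were among them. *Itgb2l* was above 10 TPM in 3 of the 4 libraries and *Camp* was below it in WT SiglecF hi neutrophils, so these genes passed through the libraries in which they were high. Intervals are 95% counting intervals, and they cover counting error only, since without molecular identifiers reads cannot be taken for independent molecules.

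*Cd300a* itself had 127 TPM in WT SiglecF lo and 163 TPM in WT SiglecF hi neutrophils, against 1.06 and 0.74 TPM in the *Cd300a-/-* libraries. *Siglecf* was low in the SiglecF lo libraries (WT, 11.3 TPM and *Cd300a-/-*, 15.3 TPM) and high in the SiglecF hi libraries (354 and 405 TPM). Both genes followed the labels of the 4 libraries.

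*Ngp* (ENSMUSG00000032484) encodes neutrophilic granule protein, a secondary granule protein related to the cathelicidins. Its level was 1177 TPM (7390 counts) in WT SiglecF lo, 3096 TPM (21443 counts) in *Cd300a-/-* SiglecF lo, 12.96 TPM (139 counts) in WT SiglecF hi and 293 TPM (2812 counts) in *Cd300a-/-* SiglecF hi neutrophils. *Ngp* was thus high in both SiglecF lo libraries and low in WT SiglecF hi neutrophils, and its counting intervals in the 4 libraries did not overlap. Ranked by TPM among all genes of a library, it stood at positions 123, 29, 6305 and 554 in the same order of libraries. The highest level was 239-fold the lowest, the widest range of the 8 genes.

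*Camp* (ENSMUSG00000038357) encodes cathelicidin, the precursor of an antimicrobial peptide. It was at 298 TPM (1160 counts) in WT SiglecF lo, 339 TPM (1458 counts) in *Cd300a-/-* SiglecF lo, 4.96 TPM (33 counts) in WT SiglecF hi and 44.8 TPM (267 counts) in *Cd300a-/-* SiglecF hi neutrophils. The SiglecF lo libraries were close to each other and the SiglecF hi libraries far apart, with a range of 68.4-fold over the 4 libraries. The level in WT SiglecF hi neutrophils rested on 33 counts, and its counting interval was 3.42 to 6.97 TPM.

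*Ltf* (ENSMUSG00000032496), which encodes the iron-binding protein lactotransferrin, had 279 TPM (4012 counts) in WT SiglecF lo, 579.7 TPM (9207 counts) in *Cd300a-/-* SiglecF lo, 41.2 TPM (1012 counts) in WT SiglecF hi and 136 TPM (2985 counts) in *Cd300a-/-* SiglecF hi neutrophils. *Lcn2* (ENSMUSG00000026822), which encodes lipocalin-2, a protein that binds bacterial siderophores, had 2385 TPM (15147 counts), 6124 TPM (42904 counts), 242 TPM (2621 counts) and 568 TPM (5510 counts) in the same order of libraries. Both genes were highest in *Cd300a-/-* SiglecF lo and lowest in WT SiglecF hi neutrophils. *Lcn2* had the highest mean TPM of the 8 genes and was the 13th most abundant gene of the *Cd300a-/-* SiglecF lo library. *Ltf* ranged 14.1-fold and *Lcn2* 25.3-fold.

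Of the surface proteins, *Cd177* (ENSMUSG00000052212) encodes a glycosylphosphatidylinositol-anchored protein that is stored in secondary granules and displayed on the neutrophil surface. Its level was 143 TPM (2001 counts) in WT SiglecF lo, 741 TPM (11403 counts) in *Cd300a-/-* SiglecF lo, 21.0 TPM (500 counts) in WT SiglecF hi and 75.9 TPM (1619 counts) in *Cd300a-/-* SiglecF hi neutrophils. *Cd177* was far higher in *Cd300a-/-* SiglecF lo neutrophils than in any other library.

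*Itgb2l* (ENSMUSG00000000157) encodes a protein similar to the β2 integrin chain and had the lowest mean TPM of the 8 genes. It was at 13.9 TPM (207 counts) in WT SiglecF lo, 68.8 TPM (1132 counts) in *Cd300a-/-* SiglecF lo, 5.62 TPM (143 counts) in WT SiglecF hi and 15.8 TPM (361 counts) in *Cd300a-/-* SiglecF hi neutrophils. Here 1 library, *Cd300a-/-* SiglecF lo, stood above the others. The intervals of WT SiglecF lo (12.1 to 15.9 TPM) and *Cd300a-/-* SiglecF hi neutrophils (14.3 to 17.6 TPM) overlapped, so the order of these libraries was not resolved at this depth.

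*Ly6g* (ENSMUSG00000022582) encodes the surface antigen by which all the cells were sorted. It was at 330.4 TPM (1599 counts) in WT SiglecF lo, 889 TPM (4746 counts) in *Cd300a-/-* SiglecF lo, 11.1 TPM (92 counts) in WT SiglecF hi and 41.9 TPM (310 counts) in *Cd300a-/-* SiglecF hi neutrophils. Although every cell had passed a Ly6G+ gate on the protein, the transcript was low in both SiglecF hi libraries, and its range of 79.9-fold was second to that of *Ngp*.

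*Chil3* (ENSMUSG00000040809), which encodes the secreted chitinase-like protein Ym1, had a level of 625 TPM (4941 counts) in WT SiglecF lo, 623 TPM (5433 counts) in *Cd300a-/-* SiglecF lo, 566 TPM (7640 counts) in WT SiglecF hi and 522 TPM (6307 counts) in *Cd300a-/-* SiglecF hi neutrophils. Its 4 levels lay within 1.20-fold of each other. The intervals of the SiglecF lo libraries, 608 to 643 TPM and 606 to 639.6 TPM, overlapped almost fully.

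Over the 4 libraries, 7 of the 8 genes were highest in *Cd300a-/-* SiglecF lo neutrophils, as were 14.1% of all genes tested, and 7 were lowest in WT SiglecF hi neutrophils, as were 9.67% of all genes. The full order *Cd300a-/-* SiglecF lo, WT SiglecF lo, *Cd300a-/-* SiglecF hi and WT SiglecF hi, from high to low, was that of 6 of the 8 genes and of 5.11% of all genes. *Itgb2l* departed from it in the middle positions and *Chil3* throughout. Summed over the 8 genes, the level was 5251 TPM in WT SiglecF lo, 12460.2 TPM in *Cd300a-/-* SiglecF lo, and lower in the SiglecF hi libraries, with 904 TPM (WT) and 1696 TPM (*Cd300a-/-*).

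**Figure D1:**
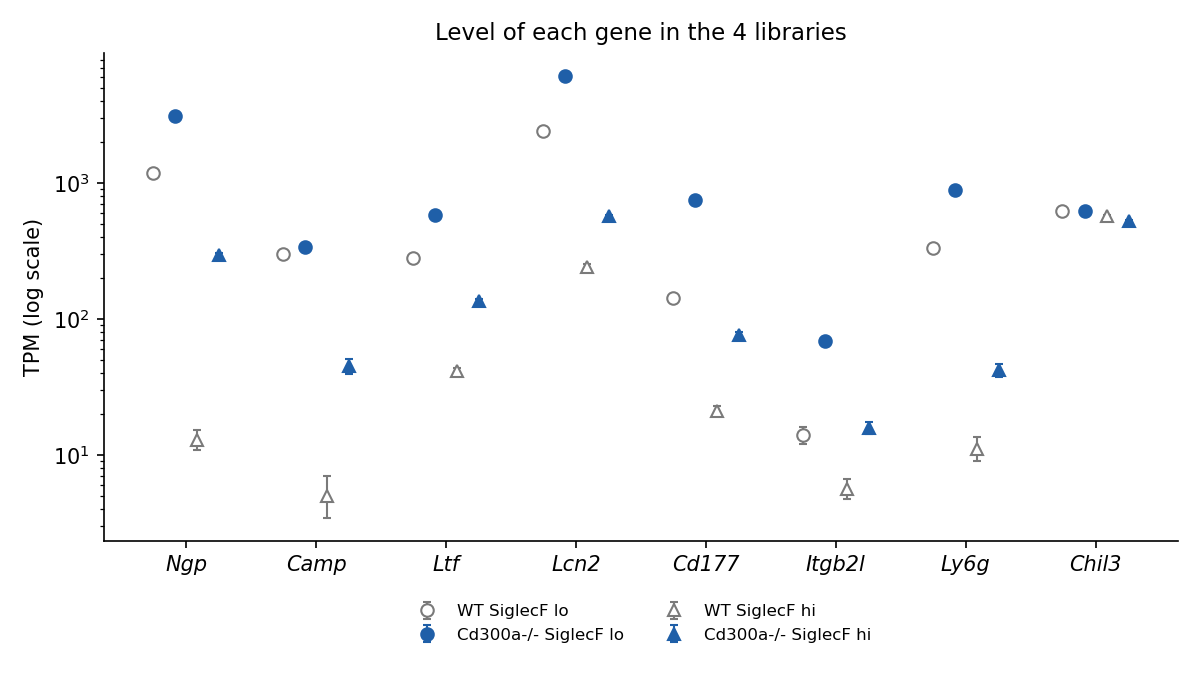
TPM of each of the 8 genes (log axis) in the 4 libraries, circles for SiglecF lo and triangles for SiglecF hi, open gray for WT and filled blue for Cd300a−/−; bars are 95% counting intervals of 1 library each. *Ngp* runs from 12.96 TPM in WT SiglecF hi to 3096 TPM in *Cd300a-/-* SiglecF lo neutrophils, and *Chil3* stays between 522 and 625 TPM.

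The first comparison asked how the lack of CD300a went with these transcripts in SiglecF lo neutrophils. Of the 8 genes, 6 were higher in *Cd300a-/-* than in WT past 0.5 and none was lower, where 16.4% of all genes tested were higher and 19.9% lower. The median log2 ratio of the 8 was 1.38, and that of all genes was -0.02. *Cd177* rose most, by a log2 ratio of 2.36 (2.29 to 2.43), followed by *Itgb2l* with 2.23 (2.03 to 2.43), the 15th and 19th highest ratios of the 6523 genes. The granule cargo genes rose less. The ratio was 1.39 (1.36 to 1.43) for *Ngp*, 1.36 (1.33 to 1.39) for *Lcn2* and 1.05 (1.00 to 1.11) for *Ltf*, and that of *Ly6g* was 1.43 (1.34 to 1.51). *Camp*, at 0.19 (0.08 to 0.30), and *Chil3*, at -0.005 (-0.06 to 0.05), did not pass 0.5. The interval of *Chil3* included 0, and its sign turned with scaling, to 0.02 with TMM-scaled counts and 0.01 when centred on the median of all genes. Past a log2 ratio of 1 there were the same number of members, 6 of 8, against 3.36% of all genes. In these bulk libraries a smaller number of cells that carry a transcript and less of it per cell cannot be told apart.

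In SiglecF hi neutrophils 7 of the 8 genes were higher in *Cd300a-/-* and none was lower, where 3.31% of all genes tested were higher and 3.46% lower. The median of the 8 was 1.75 and that of all genes 0.04. *Ngp* had the highest log2 ratio of all 6523 genes, 4.40 (4.17 to 4.62), which corresponds to a 22.6-fold difference in TPM (19.1 to 26.8). *Camp* had the third highest, 2.94 (2.50 to 3.39), a 9.04-fold difference in TPM (6.30 to 12.98). *Ngp* and *Camp* thus led this comparison among the members, although *Camp* had not passed 0.5 in SiglecF lo neutrophils. The other members that rose had ratios of 1.82 (1.51 to 2.14) for *Ly6g*, 1.81 (1.67 to 1.95) for *Cd177*, 1.70 (1.60 to 1.80) for *Ltf*, 1.35 (1.10 to 1.59) for *Itgb2l* and 1.23 (1.16 to 1.30) for *Lcn2*, and all of them were among the 18 highest of the 6523. *Chil3* had -0.12 (-0.16 to -0.07). Higher past a log2 ratio of 1 were 24 genes, 0.368% of those tested, of which 7 were members, and lower past 1 were 22 genes (0.337%).

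The comparisons in the 2 subsets use different libraries, and their values can be set side by side. By the study's methods both subsets were sorted from pooled hearts, so the libraries of a genotype may share mice. Past 0.5 in both subsets were 6 of the 8 members and 1.24% of all genes. The ratio in SiglecF hi minus that in SiglecF lo neutrophils was 3.00 (2.77 to 3.23) for *Ngp* and 2.76 (2.30 to 3.21) for *Camp*, the 11th and 14th highest of all genes, whose median difference was 0.05. For *Ltf* it was 0.64 (0.53 to 0.76) and for *Ly6g* 0.40 (0.07 to 0.72). *Cd177*, at -0.55 (-0.71 to -0.40), and *Itgb2l*, at -0.88 (-1.20 to -0.57), had larger ratios in SiglecF lo neutrophils. *Lcn2*, at -0.13 (-0.20 to -0.06), and *Chil3*, at -0.11 (-0.19 to -0.04), differed little between the subsets. *Ngp* and *Camp* therefore stood at one end of the 8 and *Cd177* and *Itgb2l* at the other, with counting intervals that did not include 0, and whether such differences would recur in other libraries was not tested.

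**Figure D2:**
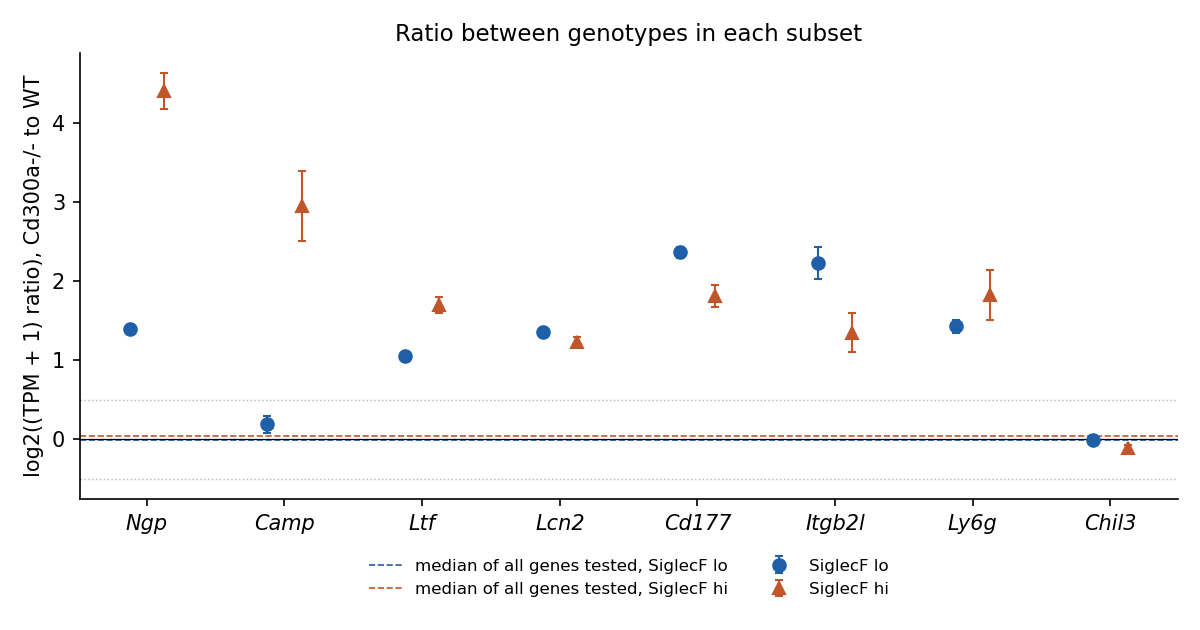
Log2((TPM + 1) ratio) of Cd300a−/− to WT for each gene, blue circles in SiglecF lo and orange triangles in SiglecF hi neutrophils, with 95% counting intervals; dotted lines mark 0.5 in either direction and dashed lines the median of all 6523 genes. *Ngp* (4.40) and *Camp* (2.94) are highest in SiglecF hi neutrophils, *Cd177* (2.36) and *Itgb2l* (2.23) in SiglecF lo neutrophils.

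The comparison of SiglecF hi with SiglecF lo neutrophils asked how the subsets differ within a genotype. It uses the same 4 libraries as the comparisons above, with each library in 2 of the 4 comparisons, so its values are not independent of those above. In WT mice 7 of the 8 genes were lower in SiglecF hi neutrophils and none was higher, where 7.47% of all genes tested were lower and 51.9% higher. *Ngp* had the lowest log2 ratio of all 6523 genes, -6.40 (-6.62 to -6.17), and *Camp* the second lowest, -5.65 (-6.07 to -5.23). *Ly6g* followed at rank 4, with -4.77 (-5.05 to -4.49). In TPM, WT SiglecF hi neutrophils held 1.10% (0.931 to 1.30%) of the *Ngp* level of SiglecF lo neutrophils, 1.67% (1.18 to 2.35%) of the *Camp* level and 3.37% (2.73 to 4.16%) of the *Ly6g* level. *Lcn2* had a log2 ratio of -3.30 (-3.36 to -3.24), *Ltf* of -2.73 (-2.83 to -2.63), *Cd177* of -2.72 (-2.85 to -2.58) and *Itgb2l* of -1.17 (-1.44 to -0.90). The median of the 8 was -3.01, against 0.53 for all genes, and 6 of the 8 lay below -2, a limit chosen after the values were seen, as did 0.782% of all genes.

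In *Cd300a-/-* mice 7 of the 8 genes were again lower in SiglecF hi neutrophils, where 7.97% of all genes tested were lower and 56.6% higher. The lowest of the members was *Ly6g*, at -4.37 (-4.54 to -4.21), the second lowest of all genes. *Lcn2* had -3.43 (-3.47 to -3.39), *Ngp* -3.40 (-3.45 to -3.34), *Cd177* -3.27 (-3.34 to -3.20) and *Camp* -2.89 (-3.08 to -2.71). *Ltf*, at -2.09 (-2.15 to -2.03), and *Itgb2l*, at -2.05 (-2.21 to -1.89), were the smallest of the 7. The median was -3.08, against 0.61 for all genes, and 7 of the 8 lay below -2, as did 1.07% of all genes. SiglecF hi neutrophils of these mice held 9.46% (9.10 to 9.84%) of the *Ngp* and 13.2% (11.6 to 15.1%) of the *Camp* level of SiglecF lo neutrophils. For *Lcn2* the share was 10.1% in WT and 9.27% in *Cd300a-/-* mice, and for *Ly6g* 3.37% and 4.71%. The step between subsets was thus smaller in the *Cd300a-/-* than in the WT libraries for *Ngp*, *Camp*, *Ltf* and *Ly6g* and nearly the same for *Lcn2*. It was larger in the *Cd300a-/-* libraries for *Cd177* (-3.27, against -2.72 in WT) and *Itgb2l* (-2.05, against -1.17).

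The median of all genes lay above 0 in both subset comparisons, so the ratios were also taken relative to it. Centred in this way, 20.9% of genes were lower and 19.3% higher in WT SiglecF hi neutrophils, and 23.6% lower and 21.2% higher in *Cd300a-/-*. With TMM-scaled counts, 21% were lower and 20.1% higher in WT, and 21.9% lower and 24.2% higher in *Cd300a-/-*. The call of *Chil3* depended on this choice. Its ratio was -0.14 (-0.19 to -0.09) in WT and -0.26 (-0.31 to -0.20) in *Cd300a-/-* mice as deposited, -0.67 and -0.87 after centring, and -0.68 and -0.84 with TMM scaling, so that 8 of the 8 genes were then lower in SiglecF hi neutrophils in both genotypes.

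**Figure D3:**
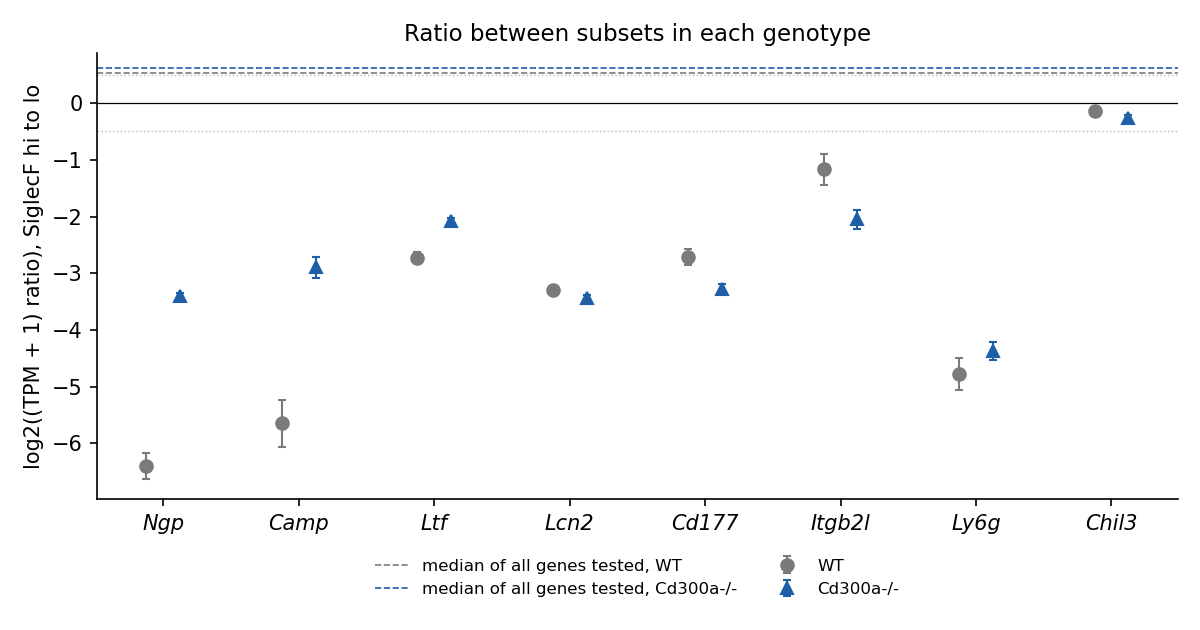
Log2((TPM + 1) ratio) of SiglecF hi to SiglecF lo neutrophils for each gene, gray circles in WT and blue triangles in Cd300a−/− mice, with 95% counting intervals; dotted lines mark 0.5 in either direction and dashed lines the median of all 6523 genes (0.53 and 0.61). *Ngp* lies at -6.40 in WT and -3.40 in *Cd300a-/-* mice, and *Lcn2* at -3.30 and -3.43.

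Ratios between genes of 1 library do not depend on the scaling of libraries against each other, and the members were set against *Lcn2*, the most abundant of them by mean TPM, a comparison chosen after the levels were seen. The TPM of *Ngp* was 49.3% (48.0 to 50.7%) of that of *Lcn2* in WT SiglecF lo, 50.6% (49.7 to 51.4%) in *Cd300a-/-* SiglecF lo, 5.36% (4.52 to 6.36%) in WT SiglecF hi and 51.6% (49.3 to 54.0%) in *Cd300a-/-* SiglecF hi neutrophils. *Ngp* was therefore at about the same level relative to *Lcn2* in 3 libraries and far lower in WT SiglecF hi neutrophils. *Camp* was at 12.5% (11.8 to 13.3%), 5.54% (5.26 to 5.84%), 2.05% (1.46 to 2.89%) and 7.90% (6.99 to 8.93%) of *Lcn2* in the same order of libraries, lowest in WT SiglecF hi neutrophils as well. *Ltf*, *Cd177*, *Itgb2l* and *Chil3* were at a higher share of *Lcn2* in SiglecF hi than in SiglecF lo neutrophils in both genotypes. *Ltf* was at 11.7% and 9.47% in SiglecF lo and at 17.0% and 23.9% in SiglecF hi neutrophils of WT and *Cd300a-/-* mice. *Cd177* was at 6.02% and 8.69% of *Lcn2* in the WT SiglecF lo and SiglecF hi libraries and at 12.1% and 13.4% in the *Cd300a-/-* libraries, higher in both subsets without CD300a. *Ly6g* was at 13.9% and 14.5% in SiglecF lo and at 4.61% and 7.38% in SiglecF hi neutrophils. *Itgb2l* was at 0.582%, 1.12%, 2.32% and 2.79% of *Lcn2*, and *Chil3* at 26.2%, 10.2%, 234% and 91.9%, in the order of libraries given for *Ngp*.

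The make-up of the group shifted with these differences. In SiglecF lo neutrophils *Lcn2* held 45.4% (WT) and 49.1% (*Cd300a-/-*) of the TPM of the 8 genes, and *Ngp* followed with 22.4% and 24.8%. In WT SiglecF hi neutrophils *Chil3* held 62.6%, *Lcn2* 26.7% and *Ngp* 1.43%. In *Cd300a-/-* SiglecF hi neutrophils *Lcn2* held 33.5%, *Chil3* 30.8% and *Ngp* 17.3%. *Chil3* was thus the leading transcript of the 8 in WT SiglecF hi neutrophils alone.

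Other granule genes were set beside the 8. Of 6 primary granule genes, which are transcribed in earlier precursors, none was among the genes tested. *Prtn3*, which encodes proteinase 3, was the most abundant of them, at 2.77 and 10.9 TPM in the SiglecF lo libraries of WT and *Cd300a-/-* mice and 11.7 and 14.3 TPM in their SiglecF hi libraries. *Mpo*, which encodes myeloperoxidase, reached at most 1.73 TPM. All 7 other genes of specific granule proteins were tested. In *Cd300a-/-* SiglecF lo neutrophils 3 were higher and none lower, where 16.4% of all genes were higher and 19.9% lower, and their median log2 ratio over the 7 was 0.48. The 3 were *Mmp8*, which encodes neutrophil collagenase, with 1.41 (1.37 to 1.45), *Olfm4* with 0.94 (0.80 to 1.08) and *Pglyrp1* with 0.59 (0.55 to 0.63). In SiglecF hi neutrophils *Mmp8* alone was higher, with 1.10 (1.01 to 1.19), and the median was 0.10, where 3.31% of all genes were higher and 3.46% lower. These shares of all genes also stand beside the genotype counts of the lists and markers below. *Lyz2*, the most abundant of the list at 7165 TPM in WT SiglecF lo and 13938 TPM in WT SiglecF hi neutrophils, had the lowest ratio in both subsets, -0.24 and -0.32. With TMM scaling *Hp*, at 0.51, also passed 0.5 in SiglecF lo neutrophils. *Camp* and *Chil3* had ratios below the median of these 7 genes in SiglecF lo neutrophils, and the other members had ratios above it.

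Between subsets, 4 of the 7 specific granule genes were lower in SiglecF hi neutrophils in both genotypes, or 4 in WT and 5 in *Cd300a-/-* mice after centring. Of all genes tested, 7.47% and 7.97% were lower as deposited, and 20.9% and 23.6% after centring. *Mmp8* was lowest, at -3.09 in WT and -3.40 in *Cd300a-/-* mice, near the values of *Lcn2*. *Lyz2* was higher as deposited, at 0.96 and 0.88, but not past 0.5 after centring, at 0.43 and 0.27. Of 4 gelatinase granule genes, the last wave, 3 were higher in *Cd300a-/-* SiglecF lo neutrophils (16.4% of all genes), with a median of 0.74. In SiglecF hi neutrophils 1 was higher (3.31% of all genes), with a median of 0.18. *Mmp25* had the highest ratio in both, 1.40 and 0.52 (0.48 after centring), *Slc11a1* the lowest in SiglecF lo, 0.16, and *Adam8* the lowest in SiglecF hi neutrophils, -0.26. *Mmp9*, the most abundant, had 0.65 and 0.38. None of 5 tested genes of secretory vesicles, which form last, passed 0.5 between genotypes in either subset, with medians of 0.15 and 0.16. *Cd14* was the most abundant, with ratios of 0.15 and 0.29, and the tested genes ran from -0.30 (*Fcgr4*) to 0.28 (*Fpr1*) in SiglecF lo and from 0.004 (*Fcgr4*) to 0.29 (*Cd14*) in SiglecF hi neutrophils. *Alpl*, under the mean TPM limit, had -1.26 (-1.57 to -0.95) in SiglecF lo, from 215 counts in WT and 90 in *Cd300a-/-*, and 0.09 (-0.25 to 0.43) in SiglecF hi neutrophils. Lower in SiglecF hi neutrophils were 2 of the 4 gelatinase granule genes in each genotype, or all 4 after centring. Of the 5 secretory vesicle genes 3 were lower in WT and 2 in *Cd300a-/-* mice, or 4 in each after centring.

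The genes of 8 regulators of granule transcription were read beside the members. Of the 7 tested, *Cebpe*, which encodes C/EBPε, was the 1 past 0.5 in SiglecF lo neutrophils, with 0.57 (0.15 to 0.98) from 61 counts in WT and 103 counts in *Cd300a-/-*, and none passed in SiglecF hi neutrophils. *Cebpe* was at 9.57 and 14.6 TPM in WT and *Cd300a-/-* SiglecF lo neutrophils and at 16.7 and 17.8 TPM in the SiglecF hi libraries. Its subset ratio was 0.75 (0.36 to 1.13) in WT and 0.27 (-0.06 to 0.60) in *Cd300a-/-* mice, or 0.22 and -0.34 after centring. The part of *Cebpe* in the levels of the members was not tested. *Cebpb*, the most abundant regulator, lay between 2408 and 3072 TPM, with ratios of 0.04 and 0.15 between genotypes. The lowest ratios were those of *Cebpd* in SiglecF lo, -0.35, and *Cebpa* in SiglecF hi neutrophils, -0.24, and *Gfi1* stayed below 1 TPM in every library. The medians of the list were 0.28 and 0.09 in the SiglecF lo and SiglecF hi comparisons. Between subsets 3 regulators were higher and 2 lower in WT SiglecF hi neutrophils, and 2 higher and 2 lower in *Cd300a-/-*, or 1 higher and 4 lower, and 0 higher and 4 lower, after centring. Of all genes tested, 51.9% were higher and 7.47% lower in WT mice as deposited, and 56.6% and 7.97% in *Cd300a-/-* mice. After centring 19.3% were higher and 20.9% lower in WT, and 21.2% and 23.6% in *Cd300a-/-* mice. *Cebpa* had the highest subset ratio of the 7, 1.72 in WT and 1.01 in *Cd300a-/-* mice, or 1.19 and 0.40 after centring.

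Genes of neutrophil precursors and of mature cells were also read beside the members. Of 7 precursor genes 4 were tested, and *Chil1* (0.67) and *Cebpe* were higher and *Cd34* (-0.99) lower in *Cd300a-/-* SiglecF lo neutrophils, while none passed 0.5 in SiglecF hi neutrophils, where *Chil1* was highest, at 0.31, and *Cd63*, the most abundant, lowest, at -0.18. The medians were 0.22 and -0.02. Of 6 genes of mature and aged neutrophils, 1 was higher in each subset, *Retnlg*, which encodes a secreted resistin-like protein. Its level in SiglecF lo neutrophils was 12110.1 TPM (WT) and 24002 TPM (*Cd300a-/-*), and that in the SiglecF hi libraries 590.1 and 1360.5 TPM, with ratios of 0.99 (0.97 to 1.00) and 1.20 (1.14 to 1.27). *Retnlg* therefore ran in the same order of libraries as *Ngp* and *Lcn2*. The other 5 did not pass 0.5 in either subset, with *Cxcr4* lowest in SiglecF lo neutrophils, at -0.33, and the medians of the 6 were 0.13 and 0.16. Of 6 proliferation genes 2 were tested, *Ccnb2*, the more abundant by mean TPM, and *Mki67*. *Mki67* was at 3.69 and 6.17 TPM in the SiglecF lo libraries of WT and *Cd300a-/-* mice and above 10 TPM in their SiglecF hi libraries alone. *Ccnb2* was at 8.52 and 7.49 TPM in the SiglecF lo and 20.8 and 11.6 TPM in the SiglecF hi libraries, so both genes passed the limit through the SiglecF hi libraries. *Mki67* was higher in *Cd300a-/-* SiglecF lo neutrophils, 0.61 (0.40 to 0.82), and *Ccnb2* lower in *Cd300a-/-* SiglecF hi neutrophils, -0.79 (-1.07 to -0.52). The other ratios were -0.16 for *Ccnb2* in SiglecF lo and -0.35 for *Mki67* in SiglecF hi neutrophils. The 4 under the mean TPM limit had ratios against the direction of *Mki67* in SiglecF lo neutrophils, *Top2a* -0.74 (-1.03 to -0.45), *Birc5* -0.93 (-1.32 to -0.53), *Tyms* -0.68 (-1.10 to -0.25) and *Cdk1* -0.31 (-0.67 to 0.05).

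Of 8 genes of binding partners and receptors of the members' proteins, 5 were tested. In SiglecF lo neutrophils *Itgam*, which encodes the CD11b chain, had a ratio of 0.58 (0.55 to 0.62) and *Lrp1*, a receptor that binds lactotransferrin, of 0.58 (0.52 to 0.64), both higher in *Cd300a-/-*. *Pecam1*, which encodes the endothelial ligand of CD177, was lower, at -1.82 (-1.98 to -1.66). None of the 5 passed 0.5 between genotypes in SiglecF hi neutrophils, where they ran from -0.28 (*Lrp1*) to 0.38 (*Pecam1*). The medians were 0.41 and 0.11. *Itgb2* was the most abundant of the list. *Slc22a17*, which encodes a receptor for lipocalin 2, lay under the mean TPM limit, with 2 and 19 counts in the SiglecF lo libraries of WT and *Cd300a-/-* mice and 33 and 92 in their SiglecF hi libraries. Its ratios were 1.03 (0.57 to 1.49) and 1.19 (0.80 to 1.57).

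Relatives in sequence were read beside the members. How the authors' counting divided reads between similar genes is not given in the sources used here, so the values of *Ly6g*, *Chil3* and *Itgb2l*, which belong to families of similar genes, are uncertain to that extent. Of 8 other β integrin genes 4 were tested and none passed 0.5 between genotypes. *Itgb2*, the most abundant, lay between 738 and 1007 TPM, with genotype ratios of 0.41 and 0.11 in the SiglecF lo and SiglecF hi subsets, and the list ran from -0.35 (*Itgb1*) to 0.41 (*Itgb2*) and from -0.32 (*Itgb5*) to 0.37 (*Itgb7*). Their medians were -0.09 and 0.07. *Itgb2l*, at 2.23 and 1.35, passed the threshold in both subsets and these relatives in neither.

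Of 10 *Ly6* genes 5 were tested, and none was higher and 3 were lower in *Cd300a-/-* SiglecF lo neutrophils, against 16.4% and 19.9% of all genes. The 3 were *Ly6a* at -1.41, *Ly6c1* at -1.29 and *Ly6i* at -0.58, opposite in direction to *Ly6g*, while *Ly6c2* was highest, at -0.10. In SiglecF hi neutrophils *Ly6i* was higher, at 0.50, which fell short of 0.5 after centring (0.46), and *Ly6c2* was lowest, at -0.25. The medians were -0.58 and 0.16. *Ly6d*, under the mean TPM limit, had ratios of -1.80 (-2.67 to -0.94) and -1.30 (-2.02 to -0.58), from 19 counts in WT and 3 in *Cd300a-/-* SiglecF lo and 15 and 2 in the SiglecF hi libraries. *Ly6e*, the most abundant of the 5 by mean TPM, had ratios of -0.45 and 0.16. Between subsets in *Cd300a-/-* mice 4 of the 5 were higher in SiglecF hi neutrophils as deposited, and none after centring or TMM scaling. Of all genes tested, 56.6% were higher as deposited, 21.2% after centring and 24.2% with TMM scaling. *Ly6c2*, the neighbor of *Ly6g* on chromosome 15, had ratios of -1.48 in WT and -1.64 in *Cd300a-/-* mice between subsets and was the 1 relative lower in both genotypes as deposited.

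Of 6 chitinase-family genes, *Chil1* alone was tested. It was at 341 and 543 TPM in WT and *Cd300a-/-* SiglecF lo neutrophils and at 63.4 and 79.0 TPM in the SiglecF hi libraries, lower in SiglecF hi neutrophils, where *Chil3* passed 0.5 downward after centring or TMM scaling but not as deposited. *Chil5* reached 26.1 TPM in *Cd300a-/-* SiglecF lo neutrophils and *Chil4*, the closest relative of *Chil3*, at most 2.40 TPM. The transferrin gene *Trf*, a relative of *Ltf*, lay between 242 and 367 TPM, with ratios of 0.22 and 0.30 between genotypes, and none of 9 other *Lcn* genes was among those tested.

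The genes whose profile over the 4 libraries was nearest to the mean profile of the 8 members were found by Euclidean distance of log2(TPM + 1), centred on each gene's mean. Over 4 libraries such nearness is a description and says nothing of shared function. *Ceacam10* was nearest, at a distance of 0.176, where the median over all genes tested was 3.99. It was at 75.7 and 154 TPM in the SiglecF lo libraries of WT and *Cd300a-/-* mice and at 5.65 and 23.7 TPM in their SiglecF hi libraries, the same order of libraries as in 6 members. *Mmp8* (0.605), *Krt83* (0.822), *Ifitm6* (0.826), *Wfdc21* (0.918) and *Padi4* (0.954), which encodes the peptidylarginine deiminase that citrullinates histones, came next. *Scrg1* (1.03), *9830107B12Rik* (1.22), *Bmx* (1.26) and *Chil1* (1.27) completed the 10. Of the members, *Lcn2* (0.575), *Ltf* (0.660) and *Cd177* (0.788) were nearest to their own mean profile, and *Ngp* (2.57) and *Chil3* (3.30) farthest. The closest pair was *Lcn2* and *Cd177* (0.897) and the most distant *Ngp* and *Chil3* (5.77).

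The ratios between genotypes of *Krt83* and *Scrg1* passed 0.5 in SiglecF hi but not in SiglecF lo neutrophils. *Krt83* had a ratio of 1.51 in SiglecF hi against 0.41 in SiglecF lo neutrophils, and *Scrg1* of 1.58 against 0.48. Their levels in WT SiglecF hi neutrophils were 0.195 TPM (3 counts) and 0.977 TPM (6 counts), and those in *Cd300a-/-* SiglecF hi neutrophils 2.39 and 4.91 TPM. Both genes thus passed the mean TPM limit through the SiglecF lo libraries alone, and a pattern shared with *Camp* cannot be read from so few counts. *Ifitm6* was nearer to *Cd177*, with a larger ratio in SiglecF lo (2.32) than in SiglecF hi neutrophils (1.46).

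In the files' coordinates, which are on GRCm39, 3 members lie within chromosome 9. *Camp* is at chr9:109676447-109678685 on the minus strand, *Ngp* at chr9:110248815-110252080 on the plus strand and *Ltf* at chr9:110848339-110871835 on the plus strand. The gap between *Camp* and *Ngp* is 570130 bases with 13 genes, 3 of them tested, and that between *Ngp* and *Ltf* 596259 bases with 23 genes, 4 of them tested. The other members are on separate chromosomes, *Lcn2* at chr2:32274645-32278264, *Chil3* at chr3:106054870-106074880, *Cd177* at chr7:24443408-24459736 and *Itgb2l* at chr16:96223488-96244819, all on the minus strand, and *Ly6g* at chr15:75027089-75030975 on the plus strand.

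The nearest tested genes on either side of each member, 16 in all, were read in the same comparisons. Between genotypes, 3 of the 16 were higher and 1 lower in *Cd300a-/-* SiglecF lo neutrophils, *Klhl18* beside *Ngp* (0.64), *Zc3h3* beside *Ly6g* (0.88), *Ceacam10* beside *Cd177* (1.01) and, lower, *Ccrl2* beside *Ltf* (-0.66), where 16.4% of all genes tested were higher and 19.9% lower. In SiglecF hi neutrophils 1 of the 16 was higher, *Ceacam10*, with 1.89, against 3.31% of all genes. *Ceacam10* lies 16895 bases from *Cd177* and is the nearest profile named above. *Ptpn23* and *Klhl18*, which flank *Ngp* at 11534 and 2914 bases, had ratios of 0.40 and 0.08 in SiglecF hi neutrophils, where *Ngp* had 4.40. Between subsets 6 of the 16 were higher and 2 lower in WT SiglecF hi neutrophils, and 3 were higher and 3 lower in *Cd300a-/-*, with *Ceacam10* and *Ly6c2* among the lower in both. Of all genes tested, 51.9% were higher and 7.47% lower in WT mice, and 56.6% and 7.97% in *Cd300a-/-* mice. After centring 1 neighbor was higher in each genotype and 6 and 7 were lower, against 20.9% and 23.6% of all genes lower. *Itgb2l* overlaps 1 annotated gene, *Gm49948*, which had 0 counts in each library.

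Because 6 of the members moved together between genotypes in both subsets, the bases before their starts were searched for short motifs of transcription factors known in granulocytes. All 8 genes were matched by symbol to RefSeq promoter windows on GRCm38.p6, a build other than that of the files, with 9 windows, 2 of them of *Ly6g*. On both strands of the 250 bases before the start, the motifs were TTNNGNAA for C/EBP factors, GAGGAA for PU.1, TTCNNNGAA for STAT factors and TATAAA for the TATA box. Some letters of TTNNGNAA and TTCNNNGAA can fall on the same bases. C/EBP letters were found in 7 of the 8 genes, all but *Camp*, and in 36.8% of 32851 windows of the same length. PU.1 letters were in 5 genes (*Cd177*, *Itgb2l*, *Lcn2*, *Ltf* and *Ly6g*) and 23.3% of windows, the STAT letters in *Chil3* and 7.02% of windows, and the TATA letters in *Cd177* and *Ly6g* and 12.4% of windows. A match describes the letters and is not a binding site.

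The windows of *Ngp* and *Camp* are printed because these genes had the highest ratios of the 8 in SiglecF hi neutrophils, and that of *Chil3* because its level hardly differed. They run 5′ to 3′ on the strand of the gene up to the base before its start, with matches in capitals. The *Ngp* window is at chr9:110419558-110419807 (plus strand), the *Camp* window at chr9:109849457-109849706 (minus strand) and the *Chil3* window at chr3:106167565-106167814 (minus strand), all on GRCm38.p6. *Ngp* has 3 C/EBP matches, the nearest from 11 to 4 bases before the start. *Camp* has no match of any of the 4 motifs. *Chil3* has 3 C/EBP matches and 1 STAT match, which fits the pattern on both strands. The 2 genes with the highest ratios thus differ in these letters, and *Ngp* and *Chil3*, which differ most in profile, have the same number of C/EBP matches. Whether the matches bear on the levels was not tested.
Ngp: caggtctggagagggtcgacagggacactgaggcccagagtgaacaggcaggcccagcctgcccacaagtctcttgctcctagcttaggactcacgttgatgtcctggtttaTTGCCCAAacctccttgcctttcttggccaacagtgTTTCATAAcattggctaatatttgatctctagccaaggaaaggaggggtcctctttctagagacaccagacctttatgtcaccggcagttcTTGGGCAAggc
Camp: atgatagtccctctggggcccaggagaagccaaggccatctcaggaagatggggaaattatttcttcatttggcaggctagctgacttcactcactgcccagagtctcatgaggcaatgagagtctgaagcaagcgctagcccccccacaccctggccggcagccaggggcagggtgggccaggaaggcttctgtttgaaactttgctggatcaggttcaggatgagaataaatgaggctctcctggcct
Chil3: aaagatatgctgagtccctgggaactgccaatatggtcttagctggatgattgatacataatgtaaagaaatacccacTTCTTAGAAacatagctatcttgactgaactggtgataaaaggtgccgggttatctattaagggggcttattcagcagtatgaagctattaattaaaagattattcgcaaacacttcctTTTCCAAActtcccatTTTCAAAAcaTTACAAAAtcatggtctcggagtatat

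Markers of other cell types were read in the same libraries, since the pools may hold other cells. The 8 neutrophil markers summed to 154986 TPM in WT SiglecF lo, 203020 TPM in *Cd300a-/-* SiglecF lo, and 28403 and 33428 TPM in the SiglecF hi libraries of the same genotypes. *S100a9* was the most abundant, none was at 0, and the sums had the order of libraries of 6 of the 8 members. In SiglecF hi neutrophils 4 of the 8 markers were lower in WT and 6 in *Cd300a-/-* mice, or 7 and 8 after centring. Of all genes tested, 7.47% and 7.97% were lower, or 20.9% and 23.6% after centring. *Itgam* (-0.12), *Mmp9* (-0.15) and *Ptprc* (0.09) were near 0 in WT mice as deposited. Between genotypes 3 markers were higher in SiglecF lo neutrophils (16.4% of all genes) and 1 in SiglecF hi neutrophils (3.31%). Sums of the 8 macrophage markers were higher in the SiglecF hi libraries, at 2892, 2732, 7106 and 6421 TPM in the order given for *Ngp*. These markers were led by *C1qb* in 3 libraries and *C1qa* in *Cd300a-/-* SiglecF lo neutrophils, and none was at 0. Of the 8, 6 passed 0.5 upward in SiglecF hi neutrophils of WT and 8 in those of *Cd300a-/-* mice, or 6 and 3 after centring, where 51.9% and 56.6% of all genes tested were higher as deposited and 19.3% and 21.2% after centring. The 4 fibroblast markers summed to 677, 622, 1457 and 1020.3 TPM, led by *Dcn*, with none at 0. The part of other cells in the lower levels of the members in SiglecF hi neutrophils was not tested. Between genotypes in SiglecF hi neutrophils, where *Ngp* and *Camp* differed most, no macrophage marker passed 0.5, and of the 3 fibroblast markers tested 2 were lower in *Cd300a-/-*. In SiglecF lo neutrophils 1 macrophage marker was higher in *Cd300a-/-*, *Mrc1* at 0.66, and 1 lower, *Fcgr1* at -1.22.

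The 7 eosinophil markers summed to 173, 87.9, 117 and 119 TPM, nearly all of it *Ear2*, while *Epx* was at 0 in each library and *Prg2*, *Ear1* and *Ear6* were at 0 in all but WT SiglecF hi neutrophils. Of the 4 monocyte markers, which summed to 1102, 940.3, 669.5 and 569 TPM and were led by *Ly6c2*, 1 was lower in *Cd300a-/-* SiglecF lo neutrophils and none passed 0.5 in SiglecF hi neutrophils. The 4 endothelial markers summed to 101, 33.1, 56.5 and 73.5 TPM, led by *Pecam1*, and both that were tested were lower in *Cd300a-/-* SiglecF lo neutrophils, against the direction of the members. The 5 erythroid markers, led by *Hba-a2*, summed to 1417, 780.5, 893 and 999.7 TPM, and 1 was higher and 2 were lower in *Cd300a-/-* SiglecF lo neutrophils. In SiglecF hi neutrophils 1 of the 4 erythroid markers tested, *Hbb-bt*, was higher in *Cd300a-/-*, at 0.79 (0.58 to 1.00), and its part in the ratios of the members was not tested. The 4 cardiomyocyte markers summed to 27.8, 12.5, 31.5 and 45.7 TPM, led by *Actc1* in the SiglecF lo and *Tnnt2* in the SiglecF hi libraries, and 1 of the 2 tested was lower in *Cd300a-/-* SiglecF lo neutrophils. No B or T cell marker was among the genes tested, and the sums were 5.09, 6.22, 8.55 and 14.2 TPM for 4 B cell markers and 5.57, 9.82, 1.71 and 4.09 TPM for 4 T cell markers, with *Trbc2* at 0 in each library. *Ear2* and some markers of macrophages, monocytes, endothelium, cardiomyocytes and erythroid cells moved with genotype in SiglecF lo neutrophils, and their part in the ratios of the members there was not tested.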

How the data were processed

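Cardiac neutrophils of 4 groups, 1 library each, were analysed from the processed files. By the methods of the study, poly(A) RNA was made into libraries with a NEBNext Ultra II kit, the NextSeq runs were paired-end and TPM came from CLC Genomics Workbench. The genome build GRCm39 is taken from the submitters' processing notes. The authors deposited an unnormalized count per gene. Whether reads or pairs were counted, and with regard to strand or not, is not given in the sources used here. The authors deposited TPM, which is normalized for gene length and depth. RPKM and a scaled CPM column in the files were not used.

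From these values the log2((TPM + 1) ratio) was computed for *Cd300a-/-* against WT in each subset and for SiglecF hi against SiglecF lo in each genotype, over genes with a mean TPM above 10. Counting intervals (95%) used the Poisson error of both counts. Alternatives were a pseudocount of 0.1, CPM with TMM factors (from edgeR 4.0.16, run under R 4.3.3), centring on the median of all genes, a mean TPM above 1, a TPM above 10 in at least 1 library and a log2 threshold of 1. The calculation of ratios and intervals was tested on simulated independent Poisson counts. That checks the arithmetic and not whether the reads of these libraries follow Poisson error. Python 3.11.15, numpy 2.4.6, pandas 2.3.3, scipy 1.17.1 and matplotlib 3.10.9 were used.

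The genes named follow a rule: the 8 members; for lists of other granule, regulator, maturation, proliferation and partner genes, the counts, the most abundant gene and the highest and lowest ratios between genotypes; list genes past 1 in both subsets; the family relatives of the members; the 10 genes nearest in profile; the nearest tested genes on either side of each member; and *Cd300a* and *Siglecf*. Markers of 10 cell types were listed as well. *Kit*, *Mpo*, *Olfm4*, *Pglyrp1*, *Hp*, *Gfi1*, *Fcnb*, *Ms4a3*, *Top2a*, *Birc5*, *Tyms*, *Cdk1*, the single markers of cell types, the subset ratios of single list genes, the gene overlapping *Itgb2l*, the genes of lowest SiglecF hi share, the log2 limit of -2 and the ratios to *Lcn2* fall outside this rule and were chosen with their values in view. The lowest ratio of 1 list in SiglecF hi neutrophils is not reported here. The members and lists were chosen with earlier results of these data known. Promoter sequences are those of RefSeq (GRCm38.p6).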

Additional observations from a re-analysis of the deposited data

Results flagged for a closer look

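No member passed 0.5 in opposite directions in the 2 subsets or the 2 genotypes, but 5 genes of the lists beside them did among those with a mean TPM above 10, which is what marked them for a closer look. Listed genes under that limit were not counted. In each case the difference between the groups was not tested, since each group has 1 library. *Ly6i*, a relative of *Ly6g*, differed between genotypes by a log2 ratio (*Cd300a-/-* over WT) of -0.58 (-0.86 to -0.30) in SiglecF lo and of 0.50 (0.29 to 0.71) in SiglecF hi neutrophils, the latter 0.46 once centred. *Ly6c1*, another relative, had a subset ratio (SiglecF hi over SiglecF lo) of -0.71 in WT and 0.85 in *Cd300a-/-* mice (-1.24 and 0.24 after centring). The same subset ratio was -1.27 and 0.92 for *Pecam1*, whose protein binds CD177 (-1.80 and 0.31 after centring), -0.55 and 1.19 for the endothelial gene *Cdh5* (-1.08 and 0.58) and -0.73 and 0.76 for the hemoglobin gene *Hbb-bs* (-1.26 and 0.14). After centring *Cdh5* alone passed 0.5 in opposite directions.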

How the results depend on the processing

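The numbers of members past 0.5 in the 4 comparisons were 6 or 7 as reported under each alternative, but 8 in the subset comparisons with TMM scaling and centring, and no ratio of a member that had passed 0.5 changed sign. The median ratio of SiglecF hi to SiglecF lo neutrophils moved with scaling, from -3.01 to -3.55 (TMM) and -3.54 (centring) in WT mice and from -3.08 to -3.63 and -3.69 in *Cd300a-/-* mice. These medians lay below the median of the lower bounds of the members' counting intervals, which is not an interval of the median itself. Centring takes out the median of all genes, 0.53 and 0.61, by construction, and TMM scaling resets the libraries against each other. Of the 32 ratios of single members, 15 moved beyond their interval with TMM scaling and 16 with centring, by at most 0.58 and 0.61, and none with a pseudocount of 0.1 or another TPM limit. Of all genes, 6.78% were past 0.5 between genotypes in SiglecF hi neutrophils and 15.0% with a mean TPM above 1, which takes in 11472 genes. Past a log2 ratio of 1 in either direction the share of all genes was 9.37% in place of 36.3% (SiglecF lo), 0.705% in place of 6.78% (SiglecF hi), 23.3% in place of 59.4% (WT subsets) and 30.3% in place of 64.6% (*Cd300a-/-* subsets). *Chil3* passed 0.5 in both subset comparisons with either scaling, and its ratio between genotypes in SiglecF lo neutrophils changed sign near 0. No paired analysis was made, and no library could be left out because each group has 1 library. Depth limits *Camp* most, with 33 counts in WT SiglecF hi neutrophils.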

Other observations

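*Kit*, which encodes the stem cell factor receptor of early precursors and lay under the mean TPM limit, was at 1.15 TPM (31 counts) in WT SiglecF lo, 13.2 TPM (394 counts) in *Cd300a-/-* SiglecF lo, 1.497 TPM (69 counts) in WT SiglecF hi and 1.45 TPM (60 counts) in *Cd300a-/-* SiglecF hi neutrophils. Its log2 ratio of *Cd300a-/-* to WT was 2.73 (2.43 to 3.03) in SiglecF lo and -0.02 (-0.32 to 0.27) in SiglecF hi neutrophils. *Kit* was named after its values were seen. Of the precursor genes listed with it, the ratio in SiglecF lo neutrophils was -0.99 for *Cd34*, -0.13 for *Cd63*, 0.11 for *Fcnb*, 0.57 for *Cebpe* and 0.67 for *Chil1*, and *Ms4a3* had 0 counts in both libraries.

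Among genes above 100 TPM in SiglecF lo neutrophils, 1213 in WT and 1173 in *Cd300a-/-* mice, the members took the 3 lowest shares of SiglecF hi to SiglecF lo TPM in WT mice, *Ngp*, *Camp* and *Ly6g*. *Retnlg* came next, with 4.87%. The limit was set on the SiglecF lo level, the denominator of the share, so genes entered through the library in which they were high. Among all genes tested, *Ly6g* was at rank 4 from the lowest log2 ratio in WT and at rank 2 in *Cd300a-/-* mice. Among the genes above 100 TPM in *Cd300a-/-* SiglecF lo neutrophils, *Ly6g* was lowest, with 4.71%, while *Ngp* was 11th and *Camp* 15th. This ranking was chosen after the values were seen. The positions between *Ly6g* and *Ngp* were taken by *Cstdc5* (4.92%), *Stfa3* (5.36%), *Stfa2* (6.49%) and *Stfa1* (8.21%), genes of stefin A-like protease inhibitors that resemble each other in sequence and are therefore uncertain, and by *Retnlg* (5.67%), *Prok2* (7.27%), *Wfdc21* (8.38%), *Lcn2* and *Mmp8* (9.42%).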
